A study of Mus musculus with 12 samples.

Results

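The response to ischemia that wild-type and TLR4 knockout-labelled microglia had in common was described from 12 of the 12 arrays of the series. It was taken as the mean ischemia minus control difference over 6 same-numbered pairs, 3 in each genotype. Each genotype gave 3 control and 3 ischemia arrays, which makes 4 groups. Ischemia meant 24 h with low oxygen or low glucose, and control cells spent that time at normal oxygen or glucose. Cells of all 4 groups then had 24 h of normal conditions (reperfusion), so every value is a level after that recovery period. Of 15273 genes tested, 1438 (9.42%) were called in the pooled comparison and 1123 of these also moved one way in all 6 pairs.

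Microglia are the resident macrophages of the brain, and TLR4 is the receptor through which they sense bacterial lipopolysaccharide and some products of damaged tissue. Low oxygen stabilises hypoxia-inducible factor (HIF), which binds a short core motif near its target genes and raises glycolysis, angiogenic signals and its own inhibitors. Sterol shortage is answered by SREBP2, which raises cholesterol synthesis enzymes. Type I interferon, which microglia make and answer, acts through the ISGF3 complex on a response element of its own.

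The labels limit what the groups stand for. The source name of the wild-type ischemia arrays reads as normoxia, while their titles and the series key place them under hypoxia; groups here follow the titles. Myocytes are named in the extraction protocol and microglia in every other label. The altered allele is not described, and Tlr4 signal was 8.39 to 8.97 in the knockout-labelled arrays against 8.54 to 9.02 in the wild-type arrays, so this probe set did not check the genotype. Nothing in the labels says that arrays came from separate cultures or animals, so the p-values measure no more than the spread among these 12 samples, possibly a technical one.

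Array medians ran from 6.30 to 6.40 on the log2 scale, and correlations between arrays from 0.966 to 0.992. Upper quartiles were 8.12 to 8.17 in control and 8.16 to 8.25 in ischemia arrays. They were higher after ischemia in each pair but knockout-labelled pair 1 (8.165 and 8.164). After quantile normalization, genes higher in all 6 pairs went from 1641 to 929. What this spread adds to the rises of bright genes was not tested. The macrophage markers Csf1r (11.93 to 12.63) and Itgam (11.68 to 12.12) were bright, whereas Tmem119 (6.27 to 6.65) and P2ry12 (5.34 to 6.27), which mark microglia in the brain, were near the limit below which probe sets were left out (5.36), and Gpr34 was under it. The mean over 11 microglia markers was 8.84 to 9.36 in control and 8.79 to 9.38 in ischemia arrays.

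Of the 15273 genes tested, limma called 1071 higher (7.01%) and 367 lower (2.4%) after ischemia at a Benjamini-Hochberg adjusted p under 0.05, with the 6 pairs as blocks. Genes with the same sign in all 6 pairs numbered 1641 higher (10.7%) and 971 lower (6.36%). Both held for 846 higher (5.54%) and 277 lower (1.81%), and 315 called genes had at least 1 pair going the other way. A change that differs between genotypes enters the error of the pooled fit, so the call itself favours like signs. Over all genes tested, changes of a wild-type and a knockout-labelled pair correlated at 0.12 to 0.51, with like signs in 52.7% to 71.8% of genes. Knockout-labelled pair 1 correlated with the other pairs at only 0.12 to 0.28. Of the called genes, 1437 of 1438 had the same sign in both genotypes. The exception was Timd4, a phagocytic receptor for phosphatidylserine (1.37 over wild-type pairs, -0.01 over knockout-labelled pairs), which lost its call after quantile normalization (adjusted p = 0.0558) and in 4 of 6 leave-outs (up to 0.145).

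The changes were small. The median change was 0.34 among rises and -0.30 among falls, 108 rises and 16 falls reached 0.5, and 5 rises and 1 fall reached 1 on the log2 scale. Called rises were in brighter genes (median signal 8.21) than called falls (6.70), against 7.47 over all genes tested. With genes kept only above the 50th percentile of signal, the median change was 0.06, and 1245 of 11065 genes were called higher. Shares and medians over all genes, given beside the lists below, are therefore not matched for brightness. In bulk RNA, fewer cells of a type and less RNA per cell cannot be told apart. The 6 ischemia arrays lay wholly above the 6 control arrays for 136 genes (0.89%) and wholly below for 99 (0.648%). At the threshold, Coa5 was just inside (0.24, adjusted p = 0.0499 by limma) and 1700016A09Rik just outside (-0.25, adjusted p = 0.05).

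The calls rest on the pairing, which the labels do not state. Without the block limma called 1 gene, AW112010, although 3244 genes had an unadjusted p under 0.05 (4705 with the block). Another scaling moved the balance: 74.5% of calls were rises in the deposited values, 64.8% after quantile normalization (491 higher, 267 lower) and 89.3% after median centring (1886 higher, 227 lower). Leaving out 1 pair gave 183 rises and 37 falls without wild-type pair 1, 295 and 59 without knockout-labelled pair 2, 495 and 124 without knockout-labelled pair 3, 701 and 236 without wild-type pair 3, and 785 and 150 without wild-type pair 2, against 1226 and 523 without knockout-labelled pair 1. Calls given below with a change and its SE held in all 6 of these fits and after quantile normalization unless a pair or that normalization is named beside the gene as ending the call, with the highest adjusted p over the leave-outs. Genes given by name or change alone were not all as stable.

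**Figure D1:**
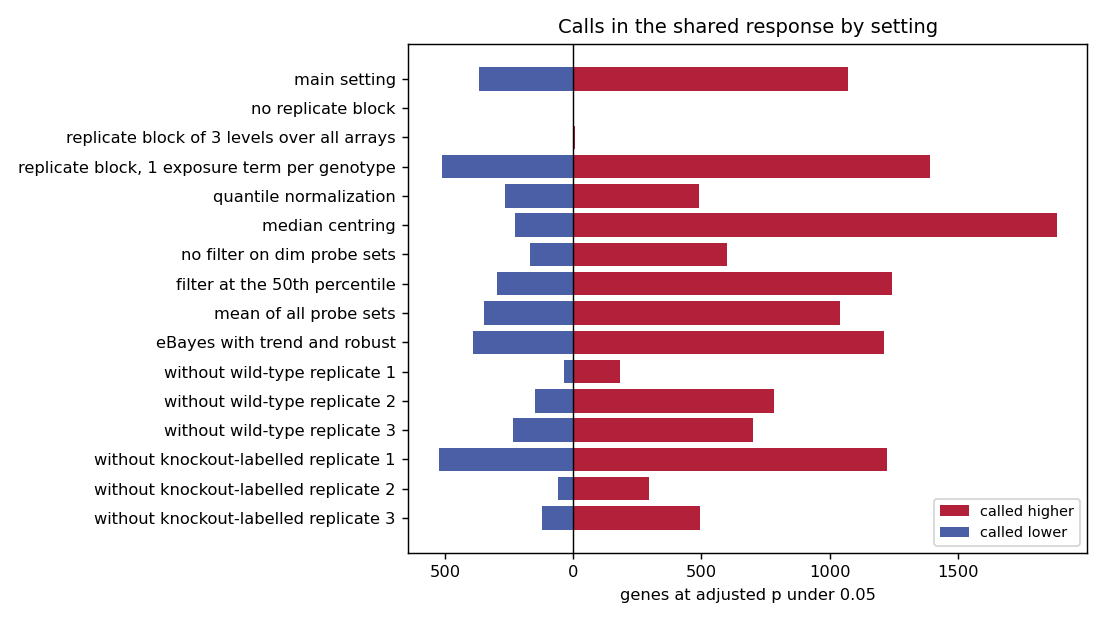
Number of genes called higher (red, to the right) and lower (blue, to the left) after ischemia at an adjusted p under 0.05, for the main setting and 15 alternatives. The bars nearly vanish without the replicate block (1 and 0) and with a block of 3 levels shared by the genotypes (5 and 2), and shrink to 183 and 37 without wild-type replicate 1.

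Slco4a1, an organic anion transporter that carries thyroid hormone, fell furthest. Its signal was 8.48, 9.29 and 10.08 (lowest, median and highest of 6) in control arrays and 7.30, 8.14 and 8.83 after ischemia. The groups overlapped, yet each ischemia array lay below its own control, by 0.92 at the least. The mean change was -1.15 (SE 0.08, 6 pairs, limma adjusted p = 1.27e-05), which is 2.22-fold lower. Wild-type pairs averaged -1.22 and knockout-labelled pairs -1.08, and the 95% interval of the genotype difference was -0.20 to 0.47.

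Pilra, an inhibitory receptor of myeloid cells, had the largest rise shared by all pairs. Control arrays had 7.40, 8.45 and 9.54 and ischemia arrays 8.79, 9.56 and 10.44. Every ischemia array exceeded its own control, and the lowest pair, wild-type pair 3, rose by 0.62. The mean change was 1.11 (SE 0.10, limma adjusted p = 0.000122), 2.16-fold, with a genotype difference between -0.22 and 0.59. Pilrb1, which lies in the same gene family and encodes an activating counterpart, was looked up after Pilra was seen and changed by 0.74 (SE 0.09, limma adjusted p = 0.00198). Cross-hybridization between the probe sets of the 2 genes was not tested.

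Nes encodes nestin, an intermediate filament protein best known from neural progenitors and reactive glia. Its signal went from 6.75, 8.26 and 9.13 to 7.62, 9.04 and 10.15, a change of 0.79 (SE 0.07, limma adjusted p = 0.000207). The pairs ranged only from 0.60 to 1.02, while control arrays differed from each other by far more. Mrpl42, a protein of the mitochondrial ribosome, went from 6.24, 6.59 and 7.22 to 7.07, 7.34 and 7.78, a change of 0.71 (SE 0.07, limma adjusted p = 0.000412). Slirp, which stabilises mitochondrial messenger RNA, changed by 0.67 (SE 0.10). With Pilra and Slco4a1, Nes and Mrpl42 were the 4 genes (3 higher, 1 lower) whose smallest pair change was at least 0.5; 52 higher and 9 lower genes reached 0.25.

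**Figure D2:**
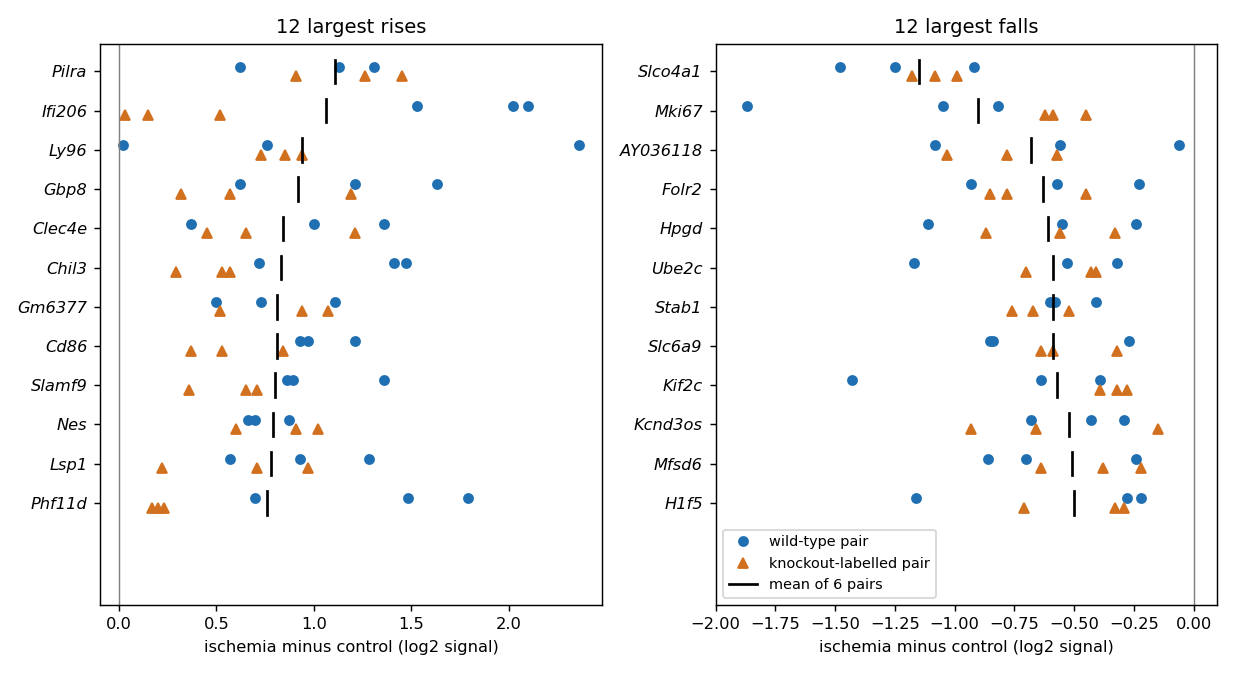
Ischemia minus control signal (log2) in each same-numbered pair for the 12 largest mean rises (left) and 12 largest mean falls (right) among genes called and alike in sign in all 6 pairs; circles are wild-type pairs, triangles knockout-labelled pairs, and the bar is the mean of 6. Slco4a1, Pilra and Nes have both genotypes interleaved, whereas the wild-type pairs of Ifi206 (1.53 to 2.10) lie far from its knockout-labelled pairs (0.03 to 0.52).

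**Figure D3:**
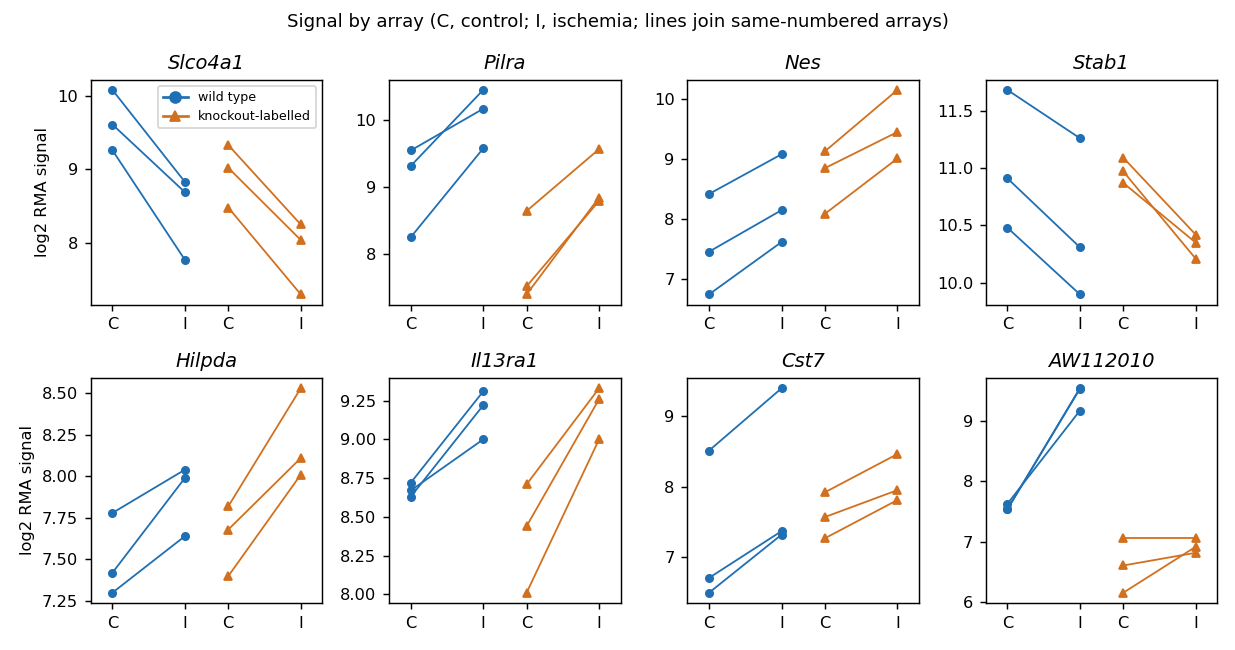
Log2 signal of 8 genes in each array, control (C) joined to ischemia (I) of the same number, wild type in blue circles and knockout-labelled in orange triangles. Lines run parallel for Slco4a1, Nes and Stab1, and the lines of AW112010 are steeper in the wild type (at least 1.54) than in the knockout-labelled cells (at most 0.76).

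Several of the other largest rises were as follows. Clec4e (Mincle, a receptor for mycobacterial and dead-cell lipids) rose by 0.84 (SE 0.12), Cd86 (a costimulatory ligand for T cells) by 0.81 (SE 0.10), Slamf9 by 0.80 (SE 0.10) and Lsp1, a leukocyte actin-binding protein, by 0.78 (SE 0.11). Control arrays of Cd86 held 6.86, 7.12 and 7.82 and ischemia arrays 7.60, 7.78 and 9.02. Only the control array of wild-type pair 2 reached into the ischemia range, and the knockout-labelled pairs changed less (0.37 to 0.84) than the wild-type pairs (0.93 to 1.21), a difference limma did not call (adjusted p = 0.471). Gm6377 rose by 0.81 (SE 0.09) and Gbp8, a guanylate-binding protein, by 0.92 (SE 0.14). Ly96, the MD-2 partner of TLR4, rose by 0.94 (SE 0.20, limma adjusted p = 0.0173), but its pairs ran from 0.02 in wild-type pair 2 to 2.36 in wild-type pair 1.

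Csf1, the colony-stimulating factor on which microglia depend, had 6.22, 6.61 and 7.03 in control and 6.69, 7.30 and 7.99 in ischemia arrays and rose by 0.69 (SE 0.10, limma adjusted p = 0.00302), least in wild-type pair 1 (0.13). Of 8 colony-stimulating factors and receptors tested, 2 were called higher (Csf1 and Csf2ra) and none lower, against 7.01% and 2.4% of all genes. The other 6 had a negative change, and the list median was -0.04. Csf2ra lost its limma call after quantile normalization (adjusted p = 0.0925) and in 4 of 6 leave-outs (up to 0.129). Il13ra1, a subunit of the receptors for interleukin-4 and interleukin-13, had 8.01, 8.65 and 8.72 in control arrays and a median of 9.24 and a highest value of 9.33 in ischemia arrays. Its 6 ischemia arrays all lay above its 6 control arrays, and the change was 0.66 (SE 0.08, limma adjusted p = 0.00207). In the list of alternative activation genes and these receptors, 5 of 10 were called higher and none lower. The rises were 3 after quantile normalization and 2 to 5 without 1 pair. Changes were negative in 4 of the 10. Chil3, a chitinase-like macrophage protein, rose by 0.83 (SE 0.13). Arg1, the enzyme that splits arginine into ornithine and urea, rose by 0.45 (SE 0.10) but lost its call without wild-type pair 1 (adjusted p = 0.0614).

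Among chemokines, 3 of 15 tested rose (5 in the fit with 1 exposure term per genotype). Pf4, a platelet-type chemokine also made by macrophages, rose by 0.64 (SE 0.07, limma adjusted p = 0.00136), between 0.34 and 0.79 in each pair. Ccl9 rose by 0.55 (SE 0.07) and Ccl6 by 0.34 (SE 0.07), the latter without a call after quantile normalization (adjusted p = 0.0505) or without wild-type pair 1 or knockout-labelled pair 2 (0.0628). Il18, a cytokine released after inflammasome cleavage, rose by 0.68 (SE 0.13, limma adjusted p = 0.0134), from 0.09 to 1.26 in a pair. The cytokine list gave 3 rises in 21 (Il18, Saa3 and Il1rn), where 7.01% of all genes rose, with 11 positive and 10 negative changes and a median of 0.02. Saa3 lost its call without knockout-labelled pair 2 (adjusted p = 0.0528) and Il1rn in 4 of 6 leave-outs (up to 0.0811). The classical cytokines Tnf (0.04, adjusted p = 0.719) and Il1b (0.07, adjusted p = 0.795), picked out afterwards for comparison, were not called.

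Disease-associated microglia genes, a set raised around plaques and in neurodegeneration, had 4 rises and no fall in 23 tested, where 7.01% of all genes were called higher. The change per gene had a median of 0.10, against -0.00 over all genes tested and 0.06 over genes above the 50th percentile of signal. The list was bright, with means of 11.63 to 11.93 in control and 11.86 to 12.00 in ischemia arrays. Cst7, an inhibitor of lysosomal proteases, went from 6.50, 7.42 and 8.51 to 7.32, 7.88 and 9.39. Wild-type array 2 was the brightest in both conditions, and each pair rose, by 0.37 at the least (mean 0.63, SE 0.08, limma adjusted p = 0.00186). Cd52, a small surface glycoprotein, rose by 0.62 (SE 0.10). Homeostatic microglia genes had 1 rise and 2 falls in 23, near the 9.42% of all genes called, with a median of 0.01. P2ry13, a purine receptor, rose by 0.37 (SE 0.07), and Cx3cr1, the fractalkine receptor, fell by 0.43 (SE 0.08, limma adjusted p = 0.0148), a call lost without knockout-labelled pair 2 (adjusted p = 0.0511).

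Of 25 hypoxia-inducible factor targets tested, 7 were called higher and none lower, with a median change of 0.07; over all genes 7.01% were called higher and 2.4% lower. Hilpda, a lipid droplet protein, had 7.30, 7.55 and 7.82 in control and 7.64, 8.02 and 8.53 in ischemia arrays. It rose in every pair (0.26 to 0.71) by a mean of 0.49 (SE 0.08, limma adjusted p = 0.00588). Pdk1, the kinase that keeps pyruvate out of the mitochondrion, rose by 0.38 (SE 0.08), P4ha1, a collagen prolyl hydroxylase subunit, by 0.33 (SE 0.07) and Egln3, an oxygen-sensing hydroxylase that marks HIF for degradation, by 0.32 (SE 0.07). Bnip3, Higd1a and Vegfa were the other 3 calls, with changes of 0.32, 0.31 and 0.28, and Car9 had 0.07 without a call (adjusted p = 0.477). Leaving out 1 pair gave 2 to 8 rises. Egln3 and Higd1a lost their calls without wild-type pair 1 (adjusted p = 0.0736 and 0.0724) and Bnip3 without wild-type pair 1 or knockout-labelled pair 2 (0.0587). P4ha1 lost it in the same 2 leave-outs (0.075) and after quantile normalization (0.057), and Vegfa in all but the fit without wild-type pair 3 (0.101) and after quantile normalization (0.117). Quantile normalization gave 5 rises and 2 falls in the list, and median centring 11 rises.

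The promoters of the 4 targets with the largest changes are shown because HIF acts through a motif near its targets. They are taken from RefSeq (GRCm38.p6) and run from 250 bases before to 50 after the start, 5′ to 3′ on the strand of the gene. Only the first start listed for each gene was searched, out of 32851 promoters. A share of all promoters is therefore a share of 27025 genes. Capitals mark the HIF core ACGTG or GCGTG, searched on both strands. Hilpda (chr6:29272238-29272537, plus strand) and Egln3 (chr12:54203825-54204124, minus strand) held 1 match each, Pdk1 (chr2:71872974-71873273, plus strand) held 2 and P4ha1 (chr10:59323046-59323345, plus strand) held 3.
Hilpda: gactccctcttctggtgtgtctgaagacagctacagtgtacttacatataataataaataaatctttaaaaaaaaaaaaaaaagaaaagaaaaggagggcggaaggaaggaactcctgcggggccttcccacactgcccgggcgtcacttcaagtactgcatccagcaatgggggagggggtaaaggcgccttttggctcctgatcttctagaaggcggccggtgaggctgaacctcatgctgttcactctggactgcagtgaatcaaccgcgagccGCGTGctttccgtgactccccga
Pdk1: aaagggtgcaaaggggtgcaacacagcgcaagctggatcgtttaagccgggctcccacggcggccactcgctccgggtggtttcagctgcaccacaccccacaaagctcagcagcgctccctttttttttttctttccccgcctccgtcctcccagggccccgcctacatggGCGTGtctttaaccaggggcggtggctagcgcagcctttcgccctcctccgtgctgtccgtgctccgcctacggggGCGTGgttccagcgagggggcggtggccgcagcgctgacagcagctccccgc
P4ha1: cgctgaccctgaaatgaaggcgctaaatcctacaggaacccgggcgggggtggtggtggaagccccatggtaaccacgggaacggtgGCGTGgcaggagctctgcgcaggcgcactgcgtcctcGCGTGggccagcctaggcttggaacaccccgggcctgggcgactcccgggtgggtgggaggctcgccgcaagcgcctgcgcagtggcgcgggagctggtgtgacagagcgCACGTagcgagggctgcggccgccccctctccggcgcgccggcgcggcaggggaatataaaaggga
Egln3: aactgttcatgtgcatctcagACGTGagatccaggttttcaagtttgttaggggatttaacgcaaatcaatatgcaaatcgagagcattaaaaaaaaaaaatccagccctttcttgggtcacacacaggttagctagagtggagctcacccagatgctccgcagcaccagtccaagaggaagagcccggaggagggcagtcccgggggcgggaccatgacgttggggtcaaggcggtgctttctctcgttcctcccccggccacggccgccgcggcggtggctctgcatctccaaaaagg
The core was in 6 of the 7 called targets and in 18 of 20 targets tested with a promoter, but also in 58.4% of the 12054 tested genes with a promoter and in 43.8% of the 27025 genes in the table. The window of Vegfa held none. A match or its absence says nothing here about binding.

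Flt1, a receptor for vascular endothelial growth factor that macrophages also carry, rose by 0.49 (SE 0.07, limma adjusted p = 0.00269) in all pairs alike (0.34 to 0.60). Its levels were 9.10, 9.23 and 9.68 in control and 9.45, 9.74 and 10.21 after ischemia. Kdr, its sister receptor, rose by 0.36 (SE 0.10), with a call that ended in every leave-out but that of knockout-labelled pair 1 (highest adjusted p = 0.1). These are 2 of 5 endothelial markers tested, where 7.01% of all genes were called higher. The other 3 had a negative change, and the list median was -0.01. Cdh5, Pecam1, Tek and Emcn were under the dim limit in the mean. The mean over 9 endothelial markers was 6.35 to 6.50 in control and 6.40 to 6.66 in ischemia arrays.

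Glycolytic enzymes had 3 rises and no fall in 17, where 7.01% of all genes were called higher, with a median change of 0.13. Aldoc, a brain-type aldolase, rose by 0.46 (SE 0.12), Tpi1 by 0.39 (SE 0.10) and Ldha, which turns pyruvate into lactate, by 0.27 (SE 0.07). None of the 3 held after quantile normalization (adjusted p = 0.0653, 0.0711 and 0.0916), leaving out 1 pair gave 0 to 3, and median centring gave 5. Aldoc lost its call without wild-type pairs 1 and 3 and knockout-labelled pair 2 in turn (0.097), and Tpi1 (0.0976) and Ldha (0.11) without these or knockout-labelled pair 1. Slc2a1, the glucose transporter, changed by 0.26 without a call (limma adjusted p = 0.061).

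All 20 sterol synthesis genes tested had a positive change, with a median of 0.20 against -0.00 over all genes (0.06 over those above the 50th percentile of signal). Of the 20, 7 were called higher and none lower, where 7.01% of all genes were called higher. Nsdhl, a sterol dehydrogenase, rose by 0.44 (SE 0.10), Cyp51, the lanosterol demethylase, by 0.42 (SE 0.10), Idi1, which isomerises isopentenyl pyrophosphate, by 0.38 (SE 0.09) and Fdps by 0.37 (SE 0.08). Nsdhl went from 8.29, 8.69 and 8.96 to 8.99, 9.06 and 9.43, with the 6 ischemia arrays all above the 6 control arrays. Sqle and Hsd17b7 rose by 0.35 each, and Msmo1 by 0.30. Quantile normalization gave 3 calls, median centring 11 and leaving out 1 pair 1 to 8. Nsdhl and Sqle lost their calls without wild-type pair 1 (adjusted p = 0.0691 and 0.0561), while Hsd17b7 kept its own. Cyp51, Idi1, Fdps and Msmo1 lost theirs after quantile normalization (0.06, 0.0672, 0.0601 and 0.103) and without wild-type pair 1 or knockout-labelled pair 2, with knockout-labelled pair 3 as well for all but Fdps and wild-type pair 3 for Msmo1 (at most 0.123). Mylip, which sends the low density lipoprotein receptor for degradation and is raised by liver X receptor, fell by 0.44 (SE 0.09, limma adjusted p = 0.0159), though not in wild-type pair 3 (0.01).

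The CCAAT box, where NF-Y binds beside SREBP, was in the promoters of all 5 called sterol genes that have one in the table and in 15 of 16 tested, against 37.9% of all promoters. It was also in 14 of 16 mitosis genes and 11 of 14 clock genes tested, so it does not set the sterol genes apart. The sterol regulatory element TCACNCCAC was in 0 of the 5 called sterol genes, in 1 of the 16 tested and in 1.22% of all promoters. Nsdhl (chrX:72918271-72918570, plus strand, 4 matches) and Idi1 (chr13:8885356-8885655, plus strand, 2 matches) are shown, with CCAAT or its reverse complement in capitals.
Nsdhl: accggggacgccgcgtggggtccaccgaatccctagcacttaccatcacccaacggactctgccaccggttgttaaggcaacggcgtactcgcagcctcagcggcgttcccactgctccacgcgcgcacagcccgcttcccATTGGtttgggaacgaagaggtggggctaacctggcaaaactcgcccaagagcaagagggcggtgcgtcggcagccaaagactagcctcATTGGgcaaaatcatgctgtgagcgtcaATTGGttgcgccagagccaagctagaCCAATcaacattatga
Idi1: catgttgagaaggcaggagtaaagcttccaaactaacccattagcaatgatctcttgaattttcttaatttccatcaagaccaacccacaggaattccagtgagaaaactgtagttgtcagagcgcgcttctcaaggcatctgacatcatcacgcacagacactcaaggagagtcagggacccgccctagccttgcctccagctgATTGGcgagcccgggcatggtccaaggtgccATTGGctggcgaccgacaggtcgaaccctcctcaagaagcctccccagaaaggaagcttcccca
A match describes letters in this window only.

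**Figure D4:**
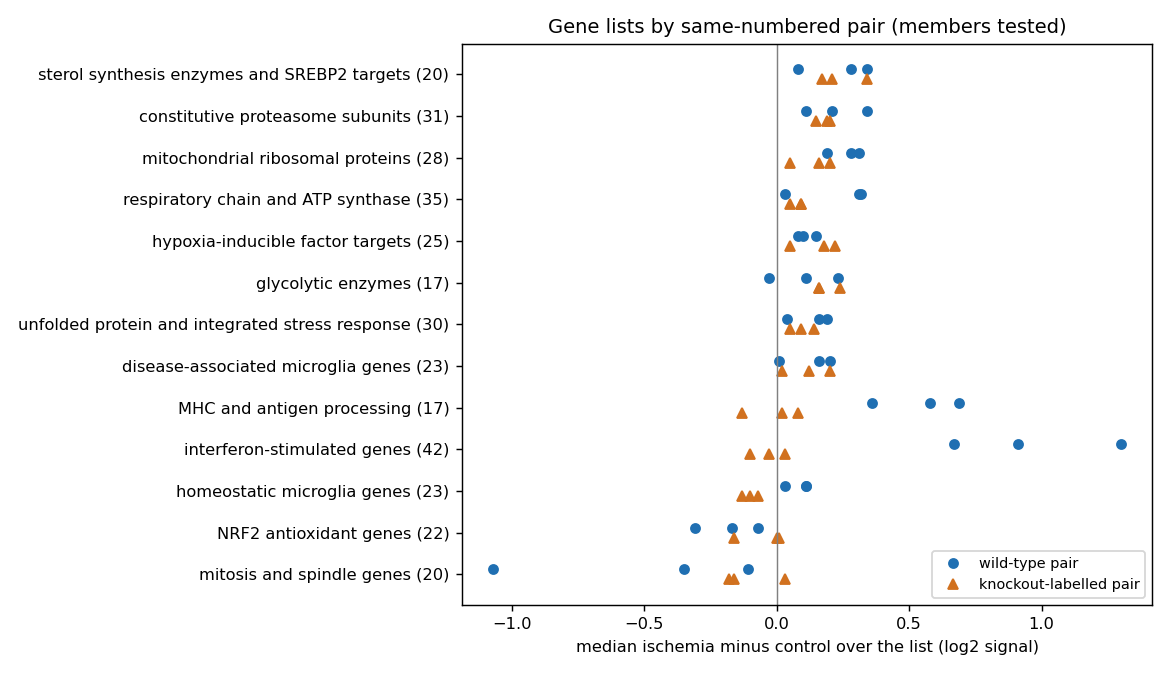
Median ischemia minus control signal (log2) over the tested members of 13 gene lists in each same-numbered pair, wild type as circles and knockout-labelled as triangles, with the number of members in brackets. Above 0 in all 6 pairs are the proteasome, sterol, mitochondrial ribosomal, respiratory chain, hypoxia-inducible factor, unfolded protein and disease-associated lists. The interferon and MHC lists lie far to the right in wild-type pairs alone, with medians of 0.98 and 0.54 over those pairs.

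Of 31 proteasome subunits, 12 rose and none fell (median change 0.21). Psma4 rose by 0.40 (SE 0.07, limma adjusted p = 0.0105), Psma3 by 0.42 (SE 0.09) and Psma1 by 0.36 (SE 0.07), of which Psma3 lost its call without wild-type pair 1 or knockout-labelled pair 2 (adjusted p = 0.0674) and Psma1 without wild-type pair 1 (0.0576). Quantile normalization gave 3 rises, and leaving out 1 pair 1 to 9. Psma4 levels went from 8.79, 9.26 and 9.59 to 9.39, 9.66 and 9.81, so that the groups overlapped, with each pair rising (0.21 to 0.60). Mitochondrial ribosomal proteins had 9 rises and no fall in 28 (median 0.20), 3 after quantile normalization and 1 to 9 without 1 pair. Respiratory chain genes had 4 rises and no fall in 35 (median 0.16; 1 to 5 rises without 1 pair, 9 after median centring), not far from the 7.01% of all genes called higher. Cycs, cytochrome c, rose by 0.49 (SE 0.08, limma adjusted p = 0.00715) in all pairs (0.26 to 0.76), and Uqcrb, a complex III subunit, by 0.59 (SE 0.12), without a call when wild-type pair 1 or knockout-labelled pair 2 was left out (highest adjusted p = 0.0522).

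The unfolded protein and integrated stress response list had 6 rises and 1 fall in 30, where 7.01% of all genes were called higher and 2.4% lower. The rises were mostly chaperones and folding enzymes of the endoplasmic reticulum, Pdia6 (0.48, SE 0.08, limma adjusted p = 0.00947), Creld2 (0.35), Hspa5 (0.33), Dnajb11 (0.26) and Dnajc3 (0.25), with the serine synthesis enzyme Psat1 (0.36). The fall was Slc7a11. Quantile normalization gave 1 rise, median centring 10 and leaving out 1 pair 1 to 5. Only Pdia6 held in every leave-out: Creld2 lost its call without wild-type pairs 1 and 3 and knockout-labelled pair 3 (0.0876), Hspa5 without wild-type pair 1 and knockout-labelled pairs 2 and 3 (0.088), and Dnajb11, Dnajc3 and Psat1 in 5 of 6 leave-outs each (0.119, 0.12 and 0.109). Hspa5 levels ran from 11.01 to 11.80 in control and from 11.76 to 12.04 in ischemia arrays.

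All 20 mitosis and spindle genes tested had a negative change (median -0.28), of which 3 were called, where 2.4% of all genes tested were called lower. The fit with 1 exposure term per genotype called 9 and median centring 5. By pair the list median ran from -1.07 in wild-type pair 2 to 0.03 in knockout-labelled pair 3, so the pairs were not alike. Mki67, the proliferation antigen, had 6.26, 7.16 and 8.64 in control and 5.81, 6.32 and 6.92 in ischemia arrays. It fell by 0.90 (SE 0.14, limma adjusted p = 0.00627), most in wild-type pair 2 (-1.87), whose control array was the brightest. Ube2c, a ubiquitin carrier of the anaphase-promoting complex, fell by 0.59 (SE 0.10), with all 6 ischemia arrays (5.97 to 6.42) below all 6 control arrays (6.53 to 7.14). The list median was -0.48 over wild-type pairs and -0.13 over knockout-labelled pairs, and the genotype difference was called for none of its genes. Plk1 fell by 0.48 (SE 0.13) and lost its call after quantile normalization (adjusted p = 0.0577) and without wild-type pair 1, wild-type pair 2, knockout-labelled pair 2 or knockout-labelled pair 3 (highest adjusted p = 0.087).

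Of 23 phagocytic and scavenger receptors tested, 4 rose and 2 fell, where 7.01% of all genes were called higher and 2.4% lower. Quantile normalization gave 2 and 3, and leaving out 1 pair 1 to 6 rises. Stab1, which takes up acetylated lipoproteins and apoptotic cells, went from 10.48, 10.94 and 11.68 to 9.90, 10.33 and 11.26. Each pair fell, by 0.41 at the least, for a mean of -0.59 (SE 0.07, limma adjusted p = 0.00136). Folr2, the folate receptor beta, fell by 0.63 (SE 0.09). Gas6, the ligand of the TAM receptors that clear dying cells, fell by 0.41 (SE 0.07). The rises were Clec4e, Timd4, Olr1 and Msr1, of which the last 2 bind modified lipoprotein and rose by 0.40 and 0.36. Msr1 lost its call after quantile normalization (adjusted p = 0.0657) and without wild-type pair 1, knockout-labelled pair 2 or knockout-labelled pair 3 (0.0967), and Olr1 without these or wild-type pair 3 (0.0724).

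Hpgd, which inactivates prostaglandins, went from 9.95, 10.50 and 11.24 to 9.71, 9.94 and 10.25 and fell by 0.61 (SE 0.10, limma adjusted p = 0.00788). Emp1, a membrane protein of the claudin superfamily, fell by 0.39 (SE 0.06) in a band of -0.49 to -0.28. Kcnh1, a voltage-gated potassium channel, fell by 0.43 (SE 0.07), with all 6 ischemia arrays below the control arrays. Slc6a9, the glycine transporter GlyT1, fell by 0.59 (SE 0.09), and Mfsd6 by 0.51 (SE 0.09). Kcnd3os (-0.52) and AY036118 (-0.68) are transcripts without an established protein, and H1f5, a linker histone, fell by 0.50 (SE 0.11) with a call lost without knockout-labelled pair 2 (adjusted p = 0.0618).

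Antioxidant genes of the NRF2 pathway had 3 falls and no rise in 22, where 2.4% of all genes were called lower. Changes were negative in 17 of the 22 and positive in 5, with a median of -0.12. Cat, catalase, fell by 0.39 (SE 0.08, limma adjusted p = 0.0137) in all 6 pairs (-0.72 to -0.24). Slc7a11, the cystine importer, changed by -0.48 and Nqo1, a quinone reductase, by -0.42, both uneven between pairs (-0.98 to 0.04 and -0.94 to 0.11). Slc7a11 lost its call without wild-type pair 1 or 2 (adjusted p = 0.0825) and Nqo1 in every leave-out but that of knockout-labelled pair 3 (0.124). Hmox1 was not called (-0.16, limma adjusted p = 0.116). After quantile normalization 8 of the 22 fell, without 1 pair 1 to 4, and with 1 exposure term per genotype 6. Of 11 iron genes tested, 1 rose and 1 fell (median 0.07), where 9.42% of all genes were called. Tfrc, the transferrin receptor, rose by 0.53 (SE 0.11) and Slc40a1, the iron exporter ferroportin, fell by 0.43 (SE 0.12). Tfrc lost its call without knockout-labelled pair 2 (adjusted p = 0.0543), and Slc40a1 in every leave-out but that of knockout-labelled pair 3 (0.0869).

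Among signalling genes, Egr2, an early growth response transcription factor, rose by 0.45 (SE 0.08, limma adjusted p = 0.00832) and Myc by 0.40 (SE 0.08), while Egr3 fell by 0.30 (SE 0.08) and lost its call in every leave-out but that of knockout-labelled pair 1 (highest adjusted p = 0.106). The list of 24 immediate early and feedback genes held 4 rises and 1 fall, and 2 and 2 after quantile normalization. Plaur, the urokinase receptor, rose by 0.47 (SE 0.09), and Mmp9, a gelatinase, by 0.59 (SE 0.11), although wild-type pair 1 did not follow (-0.02). Of 17 plasminogen and matrix genes, 4 rose and 1 fell, and 2 rose and 3 fell after quantile normalization. Over all genes 7.01% were called higher and 2.4% lower.

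Ciart, a repressor of the circadian clock, rose by 0.51 (SE 0.07, limma adjusted p = 0.00269). It had 5.31, 5.54 and 5.91 in control and 5.92, 5.98 and 6.41 in ischemia arrays, the groups not overlapping, and the pairs ran from 0.32 to 0.66. Of 16 clock genes, 2 rose and 1 fell, where 7.01% of all genes were called higher and 2.4% lower. Cry1 rose by 0.25 and Nr1d1, a nuclear receptor repressor, fell by 0.29; neither was called after quantile normalization (adjusted p = 0.106 and 0.0535). Cry1 held only without knockout-labelled pair 1 (highest adjusted p = 0.0954) and Nr1d1 only without wild-type pair 2 or 3 (0.12). The hour of collection is not stated in any source used here. The Ciart promoter (chr3:95882179-95882478, minus strand) holds 3 matches to the E-box CACGTG, which CLOCK and BMAL1 bind and which contains the HIF core; it is in 7.24% of all promoters and in 5 of 14 clock genes tested.
Ciart: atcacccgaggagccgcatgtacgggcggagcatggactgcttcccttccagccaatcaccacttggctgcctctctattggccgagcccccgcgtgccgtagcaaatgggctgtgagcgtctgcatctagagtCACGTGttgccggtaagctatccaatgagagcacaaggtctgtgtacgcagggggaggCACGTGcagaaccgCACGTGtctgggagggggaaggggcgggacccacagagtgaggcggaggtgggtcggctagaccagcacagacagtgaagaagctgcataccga

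The pooled mean of the interferon genes joins unlike responses. Of 42 tested, 14 were called higher in the pooled comparison, where 7.01% of all genes were. The list median, however, was 0.98 over wild-type pairs and -0.04 over knockout-labelled pairs. The difference between genotypes was called for 17 of the 42. Over all genes 47 were called as differing (0.308%), 45 of them lower in the knockout-labelled pairs, and 12 of these were also in the pooled calls. The count of 47 was 0 without the block or with a block of 3 levels, and 20 to 30 without wild-type pair 1, wild-type pair 2 or any of the knockout-labelled pairs. The 14 pooled calls of the list became 9 after quantile normalization, 4 to 21 without 1 pair and 34 in the fit with 1 exposure term per genotype, where the spread between genotypes does not enter the error. Ifit2, an RNA-binding antiviral protein, had a pooled change of 1.16 that combined 2.23 in the wild type with 0.10 in the knockout-labelled pairs, and it was not called without any of the wild-type pairs or knockout-labelled pair 3 (adjusted p up to 0.104). AW112010, the 1 gene called without the block, combined 1.85 and 0.32 (difference -1.52, limma adjusted p = 0.00281) and lost its pooled call without wild-type pair 1 (adjusted p = 0.0576).

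Only 4 genes were called, had one sign in all 6 pairs and also differed between genotypes: Ifi206 (1.89 and 0.23), Ly6e (1.17 and 0.19), Phf11d (1.32 and 0.20) and Vnn3 (1.00 and 0.15), wild type first. Without wild-type pair 1 none of the 4 was called by limma in the pooled comparison (adjusted p = 0.0711, 0.0674, 0.0766 and 0.0798), nor were Ifi206 and Ly6e without wild-type pair 3, Phf11d without wild-type pair 2, or Vnn3 without either. Some interferon genes were called without a called difference, Samd9l (0.98 and 0.42), Ddx58, the RNA sensor RIG-I (0.98 and 0.31), and Parp9 (0.73 and 0.36). A difference that misses the threshold does not show that the genotypes act alike. Over all genes, 7.01% were called higher in the pooled comparison. MHC and antigen processing genes had 3 rises in 17 (8 with 1 exposure term per genotype), with list medians of 0.54 and -0.00. H2-Ab1, a class II beta chain, rose by 0.68 (SE 0.11, limma adjusted p = 0.00832) in every pair (0.17 to 1.24). Toll-like receptors and adaptors had 5 rises in 18 (3 after quantile normalization, 1 to 6 without 1 pair), led by Ly96; Tlr3, the receptor for double-stranded RNA, rose by 0.54 (SE 0.11) but not without wild-type pair 1 (adjusted p = 0.0608).

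**Figure D5:**
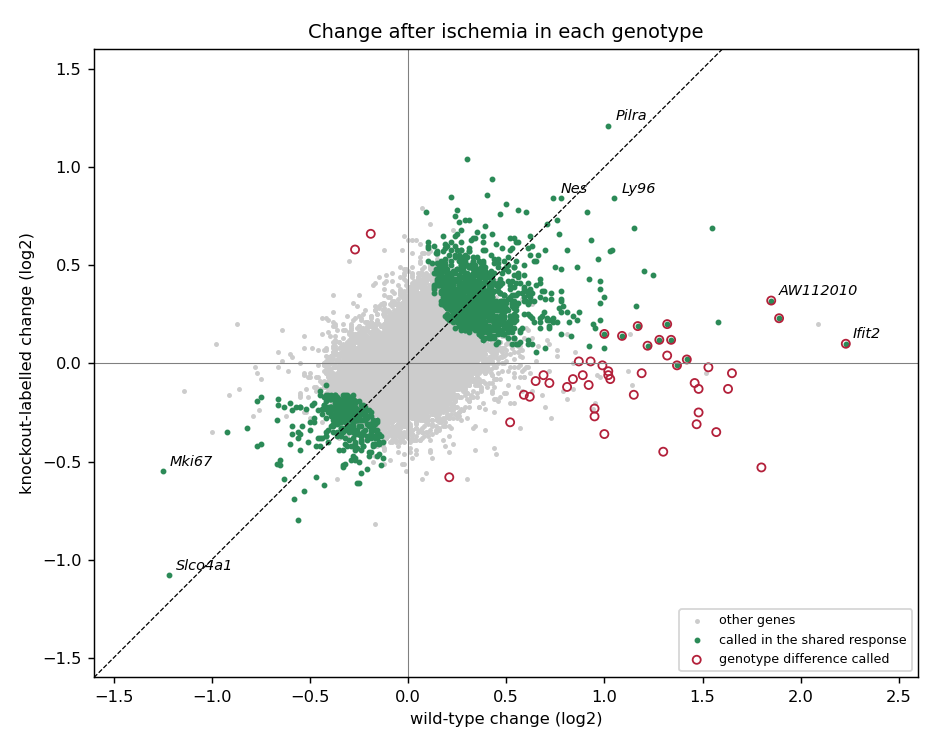
Change after ischemia (log2) in the wild-type pairs (horizontal axis) against the knockout-labelled pairs (vertical axis) for 15273 genes; green points were called in the pooled comparison and red circles mark the 47 genes whose change differed between genotypes. Slco4a1 and Pilra lie near the dashed line of equal change, and most red circles lie far to the right at a vertical value near 0.

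The calls among markers of other cells stand beside the 9.42% of all genes that were called. Lymphocyte markers averaged 5.23 to 5.30 in control and 5.11 to 5.29 in ischemia arrays and neutrophil markers 5.48 to 5.68 and 5.39 to 5.57, with none of the 4 and 6 tested called. Neuron (5 tested) and fibroblast or mural markers (8 tested) gave no calls either, although each of these genes had a negative change, with medians of -0.18 and -0.19. Fibroblast and mural markers averaged 5.90 to 6.27 in control arrays and at least 5.73 in ischemia arrays. Of 8 astrocyte markers 1 rose (Aldoc) and 1 fell (Glul), and of 10 oligodendrocyte lineage markers 1 fell (Olig1, -0.30). Changes were negative in 6 of the 8 and in 8 of the 10. Glul lost its call in all 6 leave-outs (adjusted p up to 0.159) and Olig1 in 4 (up to 0.0801). Monocyte and border-associated macrophage markers averaged 7.48 to 7.92 in control and 7.38 to 7.86 in ischemia arrays. They had 1 rise (Pf4, 0.64) and 1 fall (Stab1, -0.59) in 8, with Ccr2 and Cd163 under the dim limit. Of these 8, 6 had a negative change. The part of these cells in the results was not tested.

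The remaining lists held few calls (9.42% of all genes were called), and apart from Mylip, which held in all 6 leave-outs, and Mlkl, which held in 5, those named here held in 1 or 2. Pentose phosphate enzymes (6 tested) and fatty acid synthesis genes (14) had none. Lysosome genes had 1 rise in 29 (Ctsc), heat shock proteins and metallothioneins 1 in 14 (Hsph1), and p53 targets and cell death genes 2 in 16 (Mlkl and Casp8). DNA replication genes had 1 rise (Rfc4) and 2 falls (Cdc6, Tk1) in 27. Liver X receptor targets had 1 rise (Apoc1) beside the fall of Mylip in 11.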

How the data were processed

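Each of 12 RNA samples had its own Affymetrix Mouse Gene 1.0 ST array. Per the submitters' processing notes, the authors used RMA in Affymetrix Expression Console 1.1, and the deposited log2 signal of each probe set carries its background correction, quantile normalization and summarisation. The array number limits the precision.

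Of 35557 probe sets, 21789 had 1 gene symbol, 1621 several and 12147 none listed; 21698 symbols were matched by Entrez ID. The brightest probe set stood for a gene (999 symbols had several), and genes were kept where their mean signal exceeded the 30th percentile (5.36). Tests used limma 3.58.1 in R 4.3.3 (lmFit, eBayes, Benjamini-Hochberg, threshold 0.05) with 1 exposure term and a fixed block for each genotype and number. SE is limma's. The genotype difference came from a fit with 1 exposure term per genotype.

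The numbers pair the arrays by the data, not the labels. Deviations from the group mean correlated between same-numbered arrays at 0.48, 0.73 and 0.48 in the wild type. In the knockout-labelled arrays they correlated at 0.36, 0.32 and 0.49, so all were above 0.1. Other pairings reached 0.40 (wild-type control 1 with wild-type ischemia 3) and 0.22. Deviations within a group sum to 0, which pushes other pairings below 0 when same-numbered ones are above it. The fit used these same values, so the correlations are no independent check of the pairing. On simulated data of 15273 genes with 200 changed, 98% of changes of 1 and 83% of 0.5 were recovered, with 11 false calls. The simulation drew independent noise for each gene, gave all pairs the same change and took the pairing as given. Its counts therefore do not carry over to real pairs that respond unevenly. Named genes were the 12 largest rises and falls and the 8 with the largest smallest pair change in each direction among called genes alike in sign, up to 4 per list, Tlr4, the microglia markers and the threshold neighbours. Pilrb1, AW112010, Ly6e, Vnn3, Tnf, Il1b, Hmox1, Slc2a1, Car9 and further called members of a list were chosen after their values were seen. Members, lists and tests were chosen with earlier results of these data known.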

Additional observations from a re-analysis of the deposited data

Results flagged for a closer look

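In 5 of the 139 genes examined 1 pair stood apart from the other 5, where chance alone flags about 1 in 20 sets of 6. The change of Kif2c, a kinesin of mitosis, was -1.43 in wild-type pair 2 against -0.64 to -0.28 elsewhere, and that of Plk1 was -1.33 in the same pair against -0.50 to -0.05. The change of Myc was 0.74 in wild-type pair 3 against 0.25 to 0.43. In knockout-labelled pair 3 the change of Hsd17b7 was 0.50 against 0.29 to 0.34, and that of Itgam 0.39 against 0.00 to 0.14.

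The change differed between genotypes by limma's test of the difference (adjusted over all genes) for 9 of the genes examined. Knockout-labelled minus wild-type change was -1.65 for Ifi206 (adjusted p = 0.000591), -1.37 for Timd4 (0.000591), -1.52 for AW112010 (0.00281), -2.13 for Ifit2 (0.00747), -1.22 for Dhx58 (0.00747), -0.99 for Ly6e (0.0186), -0.85 for Vnn3 (0.0203), -1.13 for Gbp3 (0.0307) and -1.13 for Phf11d (0.0469).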

How the results depend on the processing

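The alternatives were set with earlier results known. Against 1071 rises, 367 falls and 47 genotype differences, the fit with no replicate block called 1, 0 and 0, and the replicate block of 3 levels over all arrays called 5 rises and 2 falls. Quantile normalization gave 491 rises and 929 genes changing alike in all 6 pairs, higher, and median centring 1886 rises, 227 falls and 544 genes changing alike in all 6 pairs, lower. With no filter on dim probe sets 599 rises, 170 falls and 27 genotype differences were called; the filter at the 50th percentile left 497 genes changing alike in all 6 pairs, lower. Leaving out 1 pair gave 183 to 1226 rises, 37 to 523 falls and 20 to 49 genotype differences. The cause was not tested; each leave-out had the same number of samples, yet 1 of the 6 gave more calls than all pairs together. One exposure term per genotype, the mean of all probe sets and eBayes with trend and robust kept both counts within 1.5 times, although the first of these gave 34 interferon genes higher (14 with 1 common term) and 9 mitosis genes lower (3). Of 128 named called genes, 90 kept their call after quantile normalization, 53 in all 6 leave-outs and 52 under every setting but the other block choices, and none reversed. Genes that were never called turned sign near 0. After quantile normalization Tlr4 had -0.06, Tnf -0.04 and Tmem119 0.01, and after median centring Csf1r had 0.02 and Tmem119 0.03. Over the leave-outs Tlr4 ran from -0.01 to 0.06, Tmem119 ran from -0.06 to 0.03, Il1b ran from -0.09 to 0.20, P2ry12 ran from -0.03 to 0.18 and Csf1r ran from -0.05 to 0.01.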
